A study of Mus musculus with 72 samples.

Results

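The data described here compared how much the liver and the lung of the same strain of mouse changed after a single whole-body dose of X-rays. Members were chosen by tissue and dose as the labels gave them, and were 12 of the 36 mRNA arrays in a series of 72 samples. The mice were female C57BL/6 J, 6 to 8 weeks old. Irradiated mice received 12 Gy at the surface of the body and control mice (0 Gy) were sham irradiated in the same kind of container. Tissue was taken 48 h later, and each of the 4 groups (liver at 0 and 12 Gy, lung at 0 and 12 Gy) held 3 arrays of poly(A) RNA amplified from whole tissue. The labels number the samples 1, 11 and 21 at 0 Gy and 6, 16 and 26 at 12 Gy in both tissues, but do not say whether equal numbers were the same animal, so p-values measure the spread between these samples only. The quantity tested for each probe was the tissue difference, that is the liver change (mean log2 level at 12 Gy minus that at 0 Gy) minus the lung change. A positive tissue difference means that the liver change was the higher of the pair, whichever way each tissue moved.

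Ionizing radiation breaks DNA, and the damage stabilizes the transcription factor p53, which switches on genes of cell-cycle arrest, such as Cdkn1a, and of cell death, such as Bbc3. Lymphocytes and the dividing precursors of red blood cells are among the most radiosensitive cells of the body, whereas hepatocytes and most lung cells rarely divide. Both organs also carry blood and resident immune cells, so a whole-tissue array reads the RNA of several cell types together, and fewer cells of a type and less RNA per cell cannot be told apart.

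The tissue labels were borne out by defining markers. On the log2 scale of normalized intensity, where no probe exceeded 18.65, the hepatocyte genes Alb, Ttr and Apoa1 lay between 16.71 and 18.65 on all 6 liver arrays, and the lung genes Sftpc, Sftpb and Scgb1a1 between 15.16 and 18.65 on all 6 lung arrays. Alb was also seen in lung, at 6.25, 9.92 and 11.00 on the control arrays and 10.70, 11.43 and 7.83 on the 12 Gy arrays, and Scgb1a1 in liver at 5.75 to 11.78. The share of spots well above background was 46.6 to 54.0% on liver arrays and 54.1 to 64.0% on lung arrays, and no spot was saturated. All 3 lung 12 Gy arrays lay on 1 slide that was scanned on a later day than the other slides of the 12 arrays, so in lung the 12 Gy dose and that slide and scan day cannot be told apart within them. Most named genes with a called tissue difference are therefore given with 2 further values, chosen after seeing the data and printed in this order. One is the tissue difference in a fit of all 36 mRNA arrays with the later scan day as a term, which rests on the single lung 8 Gy array (number 25) of that slide. The other is the tissue difference at 8 Gy without that array, which shares the 0 Gy arrays with the 12 Gy comparison and is set beside it as a value of its own.

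The liver change and the lung change differed at 2055 of 41073 tested probes (5.00%), with an absolute tissue difference above 1 and an adjusted p below 0.05 in limma. Of these, 956 were above 0 (2.33%) and 1099 below 0 (2.68%). Taken as genes with 1 probe each, 367 of 19060 were above 0 (1.93%) and 737 below 0 (3.87%). On its own, the liver change was called at 782 probes (1.90%) and the lung change at 2796 (6.81%). With the scan day as a term 196 of 47376 probes were called (0.414%), 127 of them among the 2055, and at 8 Gy without the later slide 59 of 42361 (0.139%). The division into higher and lower also moved with the scaling, since 59.1% of calls were above 0 with the scanner's processed signal and 64.9% with the authors' series values, against 46.5% here. The median tissue difference of all tested probes was -0.10, and 0.07 with the series values.

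At most called probes the change of 1 tissue alone passed its own test, at 991 probes in lung and 218 in liver. A tissue without a call was not thereby shown to be unchanged. Among the 956 probes above 0, 623 fell in lung with no call in liver, 45 rose in liver with no call in lung, and 29 fell in both. Among the 1099 below 0, 368 rose in lung with no call in liver and 173 fell in liver with no call in lung. Neither tissue was called alone at 800 of the 2055 probes, whose median absolute tissue difference was 1.22. Opposite calls in both tissues were rare, at 4 probes, which are named here after their values were seen. They were Adamdec1, which encodes a metalloprotease, with -1.14 in liver and 1.47 in lung, Lca5l with -1.03 and 1.04, the nuclear receptor gene Nr4a2 with -1.01 and 1.02, and a dim second probe of Hemgn with 1.69 and -1.31.

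**Figure D1:**
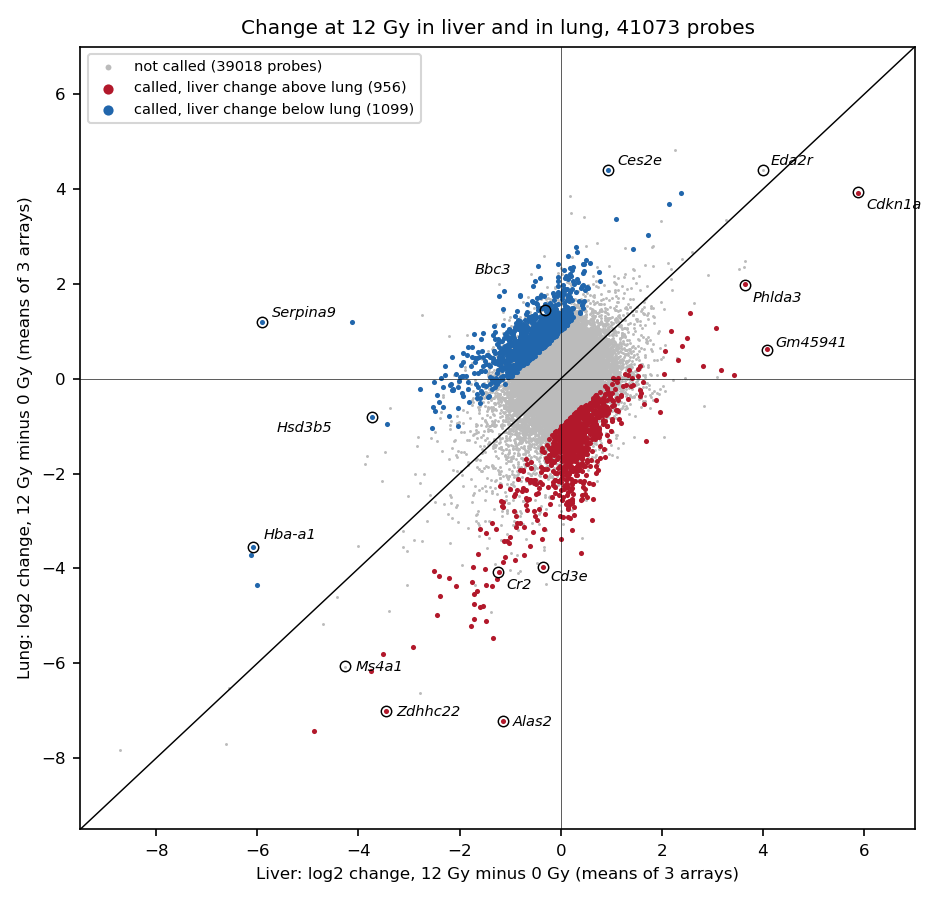
Change from 0 to 12 Gy (log2, means of 3 arrays per group) in liver on the horizontal axis and in lung on the vertical axis for 41073 probes, with the diagonal marking equal change. The 956 called probes whose liver change was higher are red, the 1099 whose liver change was lower are blue, and Alas2 (-1.15 in liver, -7.22 in lung) and Serpina9 (-5.91, 1.20) lie far from the diagonal.

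Few red-cell genes had a called tissue difference, and those that had did not move as 1 group. Alas2, the erythroid enzyme that starts heme synthesis, fell in both tissues but far more in lung. Its log2 levels were 12.28, 11.94 and 12.02 in control liver and 10.78, 10.91 and 11.10 after 12 Gy. In lung they were 13.32, 13.59 and 13.20 in controls and 6.38, 6.20 and 5.89 after 12 Gy. The groups did not overlap in either tissue, and the fall was 2.22-fold in liver and 149-fold in lung. The tissue difference was 6.07 ± 0.26 (SE) with a limma adjusted p of 1.7e-06. It was 6.01 with the scan day as a term and 6.16 at 8 Gy, both also called.

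The alpha-globin genes Hba-a1 and Hba-a2, which encode the oxygen-carrying chains, differed the other way. Hba-a1 lay at 15.98, 16.18 and 16.09 in control liver and at 10.22, 10.09 and 9.70 after 12 Gy. In lung it lay at 17.62, 17.56 and 17.65 in controls and at 14.21, 13.99 and 14.00 after 12 Gy. Both tissues fell without overlap, 67.7-fold in liver and 11.6-fold in lung. This gave a tissue difference of -2.54 ± 0.23 (limma adjusted p = 7.4e-04), -3.13 with the scan day as a term and -2.38 at 8 Gy, and a second probe gave -1.68. Hba-a2, whose transcript is nearly identical so that the 2 genes' probes may share signal, gave -2.41, with -3.39 and -2.36. Beta-globin probes fell about as far in both tissues, with changes of -6.56 and -6.52 for Hbb-b1, -6.62 and -7.71 for Hbb-b2 and -8.71 and -7.84 for Hbb-bt in liver and lung, where the Hbb-bt liver fall is a lower bound because no 12 Gy array was well above background, and none of the 3 tissue differences was called. All 5 globin genes with a named probe fell in both tissues, and 2 of 5 were called below 0, against 3.87% of all genes. The list's median tissue difference of -0.87 turned to 0.21 with a background offset of 50, and was -1.95 with scaling to the 75th percentile, where 4 were called.

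Of 11 tested erythroid genes besides the globins, 2 were called above 0, against 1.93% of all genes, and none below. The other was Slc4a1, the anion exchanger of the red-cell membrane, with changes of -1.48 in liver and -3.26 in lung and a tissue difference of 1.79 ± 0.44 (limma adjusted p = 0.040), with 1.84 and 2.78. Its 12 Gy arrays were not well above background in either tissue, so the falls were at least 2.78-fold and at least 9.60-fold, and the call held in 2 of 12 fits without 1 array. Hemgn, the brightest member, had changes of 0.45 and 0.87 and was not called. None of 8 heme synthesis genes was called, and Alas1, the form of the enzyme used outside red cells, had changes of -0.06 and 0.19.

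Promoters of Alas2 and Hba-a1 are shown because these red-cell genes fell together and yet differed in opposite directions between the tissues. Each is the 250 bases before the RefSeq start on GRCm38.p6, at chrX:150547167-150547416 and chr11:32283422-32283671, both on the + strand. Capitals mark the motif read by the erythroid factor GATA1 (AGATAA, or the same with T as its first or G as its last base) and CACCC, the core of the KLF1 motif, searched on both strands, and no matches overlapped.
Alas2: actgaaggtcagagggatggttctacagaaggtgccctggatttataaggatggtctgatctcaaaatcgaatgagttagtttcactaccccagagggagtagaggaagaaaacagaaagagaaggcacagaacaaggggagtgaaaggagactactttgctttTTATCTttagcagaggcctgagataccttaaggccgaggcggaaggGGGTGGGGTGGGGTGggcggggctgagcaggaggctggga
Hba-a1: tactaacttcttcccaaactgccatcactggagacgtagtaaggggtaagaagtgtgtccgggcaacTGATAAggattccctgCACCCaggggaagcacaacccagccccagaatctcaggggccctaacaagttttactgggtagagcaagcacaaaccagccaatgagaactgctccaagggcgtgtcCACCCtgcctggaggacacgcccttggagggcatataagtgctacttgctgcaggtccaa
The Alas2 stretch held 1 GATA1 motif, 86 to 81 bases before the start, and 3 CACCC. The Hba-a1 stretch held 1 GATA1 motif, 183 to 178 bases before the start, and 2 CACCC. Among 32851 promoters of the same length, 26.5% held a GATA1 motif and 52.0% CACCC, so both are common.

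**Figure D2:**
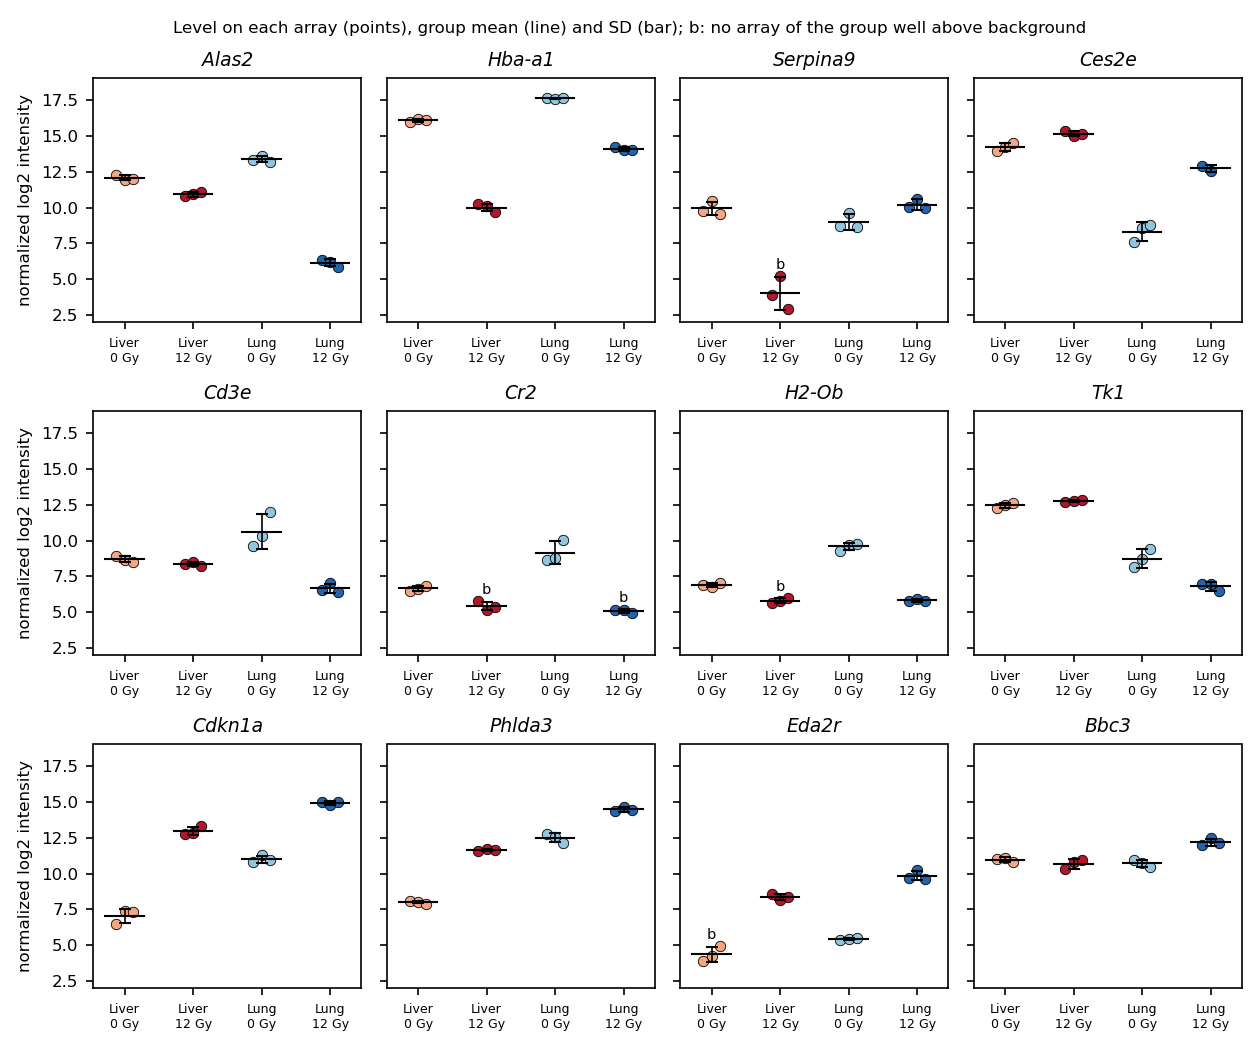
Normalized log2 intensity of 12 genes on each of the 12 arrays (points), with the group mean (line) and SD (bar) of 3 arrays, by tissue and dose. Letter b marks a group with no array well above background, and Ces2e has 2 points in lung at 12 Gy because 1 spot was excluded as an outlier.

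p53 target genes rose in both tissues, and single members differed. In a list of 22, 15 were called up in liver and 16 in lung, and none was called down in either. Among all probes 1.90% were called in liver and 6.81% in lung, in either direction. For the tissue difference, Cdkn1a, Phlda3 and Plk2 were called above 0 and Bbc3 below 0, against 1.93% and 3.87% of all genes. The median of the list was -0.13, and became 0.40 with the processed signal, 0.43 with the series values and 0.20 with scaling within each tissue, so the list as a whole had no stable direction.

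Cdkn1a encodes p21, the inhibitor of cyclin-dependent kinases that halts the cell cycle. Its levels were 6.51, 7.38 and 7.32 in control liver and 12.78, 12.81 and 13.30 after 12 Gy. In lung they were 10.79, 11.26 and 10.93 in controls and 14.98, 14.79 and 15.01 after 12 Gy. Control lung was thus far above control liver on this probe, and both tissues rose without overlap, 59.3-fold in liver and 15.3-fold in lung. This gave a tissue difference of 1.96 ± 0.35 (limma adjusted p = 0.012), 2.54 with the scan day as a term and 1.60 at 8 Gy. A second, dimmer Cdkn1a probe gave 2.38 in liver and 3.91 in lung, a tissue difference of -1.53 in the opposite direction (limma adjusted p = 0.035). That probe was not well above background on any control liver array, so its liver rise has no measured starting level.

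Phlda3, which encodes an inhibitor of the kinase Akt, lay at 8.07, 8.03 and 7.90 in control liver and 11.58, 11.73 and 11.62 after 12 Gy. Lung levels were 12.78, 12.55 and 12.17 in controls and 14.33, 14.68 and 14.45 after 12 Gy. The rise was 12.5-fold in liver and 3.96-fold in lung, from a control level that was higher in lung. Its tissue difference was 1.66 ± 0.25 (limma adjusted p = 0.0067), with 1.88 and 1.50 in the fits with the scan day and at 8 Gy. Plk2, which encodes a polo-like kinase, had changes of 1.40 and -0.15 and a tissue difference of 1.55, with 2.27 and 1.51.

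Bbc3 encodes PUMA, a p53-induced protein that triggers apoptosis, and rose in lung alone by the test. Its levels were 11.05, 11.10 and 10.79 in control liver and 10.29, 10.83 and 10.91 after 12 Gy, which overlapped. In lung they were 10.95, 10.74 and 10.49 in controls and 11.99, 12.45 and 12.11 after 12 Gy, with no overlap and a rise of 2.75-fold. Its tissue difference was -1.76 ± 0.30 (limma adjusted p = 0.011), and -1.71 with the scan day as a term and -1.68 at 8 Gy were both called too. Control levels were alike in the 2 tissues here, unlike those of Cdkn1a and Phlda3. Eda2r, a death-receptor gene, had changes of 4.01 and 4.41, and its tissue difference of -0.40 was not called (limma adjusted p = 0.52). It was above 0 with the processed signal and the series values. No control liver array was well above background for Eda2r, so its liver rise has no measured starting level. Perp, the brightest member, had a tissue difference of -1.05 and was not called.

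Promoters of Cdkn1a and Bbc3, the pair of p53 targets that differed in opposite directions, are shown with p53 half-sites and CACCC in capitals. They are the 250 bases before the first RefSeq start listed on GRCm38.p6, at chr17:29090729-29090978 and chr7:16309333-16309582, both on the + strand. RefSeq lists 2 starts for Cdkn1a and 3 for Bbc3, and the windows before the others are not shown. The stretches therefore do not compare the 2 genes as a whole.
Cdkn1a: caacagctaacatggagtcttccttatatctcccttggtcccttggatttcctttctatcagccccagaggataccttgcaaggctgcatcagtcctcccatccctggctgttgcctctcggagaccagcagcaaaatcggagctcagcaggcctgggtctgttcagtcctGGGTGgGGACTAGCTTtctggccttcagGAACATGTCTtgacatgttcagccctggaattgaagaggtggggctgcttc
Bbc3: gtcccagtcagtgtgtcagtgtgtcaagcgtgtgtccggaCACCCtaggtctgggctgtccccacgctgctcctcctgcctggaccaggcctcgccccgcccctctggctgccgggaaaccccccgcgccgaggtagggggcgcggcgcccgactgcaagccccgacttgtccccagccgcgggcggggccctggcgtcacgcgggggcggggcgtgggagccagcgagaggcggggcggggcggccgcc
The Cdkn1a stretch held 2 p53 half-sites, 73 to 64 and 51 to 42 bases before the start. The Bbc3 stretch held none, which says only that these letters are not in this window. A half-site was present in 7.13% of the 32851 promoters.

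As measured, lymphocyte genes fell further in lung than in liver, though 5 of the 9 called B cell genes reached the background in liver at 12 Gy. Of 14 tested B cell genes 9 were called above 0 and none below, with a median tissue difference of 1.95. Of 13 T cell genes 4 were called above 0 and none below (median 2.21), and of 12 NK and cytotoxic cell genes 3 and none (median 1.06). These stand against 1.93% of all genes called above 0 and a median of -0.22 over all genes. The medians were 1.94, 2.34 and 1.26 with the scan day as a term, and 1.68, 2.31 and 1.24 at 8 Gy. The counts called above 0 fell, from 9 B cell, 4 T cell and 3 NK cell genes to 4, 2 and 1 with the scan day as a term and to 1, 0 and 1 at 8 Gy.

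Cd3e, a chain of the T cell receptor complex, had nearly the same level in liver before and after irradiation. It lay at 8.94, 8.66 and 8.54 in control liver and 8.36, 8.50 and 8.22 after 12 Gy, a change of -0.35 that was not called. In lung it lay at 9.61, 10.30 and 11.98 in controls and 6.55, 7.04 and 6.40 after 12 Gy, a fall of 15.7-fold. Its tissue difference was 3.62 ± 0.64 (limma adjusted p = 0.012), with 3.46 and 3.16 in the fits with the scan day and at 8 Gy. Cd3d, another chain of the complex, had changes of -1.71 in liver and -4.76 in lung and gave 3.05 ± 0.62, with 3.16 and 3.21. Zap70, the kinase below the receptor and the brightest T cell gene here, had changes of -0.33 and -0.49 and was not called.

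In the B cell list, Cr2, the complement receptor CD21, lay at 6.50, 6.64 and 6.85 in control liver and 5.75, 5.19 and 5.35 after 12 Gy. Lung levels were 8.65, 8.75 and 10.07 in controls and 5.19, 5.14 and 4.94 after 12 Gy. No 12 Gy array of either tissue was well above background, so the falls were at least 2.35-fold in liver and at least 16.8-fold in lung. The tissue difference was 2.84 ± 0.45 (limma adjusted p = 0.0086), with 2.35 and 3.47. Fcer2a, the low-affinity IgE receptor CD23, gave 2.53, with 2.36 and 2.26, from falls of at least 5.00-fold and at least 30.7-fold. The B cell gene Ms4a1, which encodes CD20, had changes of -4.26 and -6.07. Its tissue difference of 1.81 was not called (limma adjusted p = 0.11). The liver fall of Ms4a1 is a lower bound, because no 12 Gy liver array was well above background. Blnk, an adaptor of the B cell receptor and the brightest member, had changes of -0.90 and -0.60.

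The starting levels of these lists differed between the tissues. The summed intensity of the B cell list was 2369 to 2928 in control liver and 906 to 993 after 12 Gy, against 15204 to 36532 and 2964 to 3931 in lung. That of the T cell list was 12060 to 16031 and 10287 to 11888 in liver, against 9744 to 46215 and 2561 to 3797 in lung. The T cell sum in liver mainly follows the uncalled Zap70. With arrays of all doses normalized together, its mean log2 level was 13.18 in control liver and 10.36 in control lung. Cd3d lay at 8.80 in control liver. The liver changes were -0.33 for Zap70, -0.35 for Cd3e and -1.71 for Cd3d, with a list median of -0.75. The liver sum therefore does not give the fall of the dimmer members. Liver at 12 Gy was on no array well above background for 5 of the 9 called B cell genes, so a liver fall that reached the background is understated and the tissue difference of those genes is bounded by it. For Cr2 and Fcer2a the lung fall reached the background as well, so their tissue difference could be too high or too low. Control lung number 21 was the highest in Cd3e and Cr2. Without it, 6 T cell, 6 B cell and 3 NK cell genes were called, the medians were 1.65, 1.84 and 1.06, and Cd3e gave 2.96 and Cr2 2.39. Across the fits without 1 array, 1 to 7 T cell genes and 6 to 11 B cell genes were called above 0. The T cell count was 1 without control liver number 11, 2 without control liver number 21, 12 Gy liver number 6 or 12 Gy lung number 26, and 7 without control lung number 1. The NK cell count was 6 without 12 Gy lung number 16.

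Among cytotoxic genes, Prf1, which encodes perforin, had changes of 0.07 and -1.89 and a tissue difference of 1.97 ± 0.26 (limma adjusted p = 0.0044). It was 0.96 with the scan day as a term and 0.39 at 8 Gy, both smaller and not called. Ncr1, the NK cell receptor NKp46, gave 1.64, with 1.27 and 1.48, and was not well above background on any liver array. Gzma, the granzyme A gene, fell in both tissues by 1.77 and 2.12 on the log2 scale and was not called.

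MHC class II genes, which present peptides to helper T cells, had called tissue differences in both directions. Of 10 tested, 9 were called down in liver and 7 in lung. The shares of all probes called in either direction were 1.90% in liver and 6.81% in lung. H2-Ob and H2-Oa, the chains of the accessory molecule found mainly in B cells, were called above 0. H2-Ab1, H2-Eb1 and Cd74, the classical chains and their invariant chain, were called below 0. Among all genes 1.93% were called above 0 and 3.87% below. No 12 Gy liver array was well above background for H2-Ob or H2-Oa. Their liver falls are therefore lower bounds, and their tissue differences are bounded by that.

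H2-Ob lay at 6.93, 6.74 and 7.05 in control liver and 5.67, 5.78 and 5.99 after 12 Gy, when no array was well above background. In lung it lay at 9.28, 9.72 and 9.76 in controls and 5.78, 5.94 and 5.76 after 12 Gy. The fall was at least 2.14-fold in liver and 13.5-fold in lung, and the tissue difference of 2.66 ± 0.24 (limma adjusted p = 7.4e-04) was 2.67 with the scan day as a term and 2.18 at 8 Gy, all called. H2-Oa gave 1.55, with 1.81 and 1.11, from changes of -2.51 in liver and -4.06 in lung, and was not called in the other fits. H2-Ab1, by contrast, lay at 12.88, 12.09 and 12.09 in control liver and 10.01, 10.15 and 9.46 after 12 Gy, and in lung at 15.20, 14.89 and 15.07 and then 14.26, 14.68 and 14.19. The liver fall was 5.58-fold, the lung change of -0.68 was not called, and the tissue difference was -1.80 ± 0.36 (limma adjusted p = 0.020), with -1.14 and -0.81 in the other fits. On 3 further H2-Ab1 probes, none called, the tissue difference was -1.37, -0.70 and -0.56, and the lung change was larger, at -1.13, -2.002 and -2.47. H2-Eb1 gave -1.50, with -1.14 and -0.71, and Cd74 -1.42, with -0.86 and -0.74. None of the 3 genes below 0 was called with the scan day as a term or at 8 Gy. A dimmer H2-Ob probe gave 0.89 and was not called.

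Interferon response genes fell in liver more than in lung. Of 22 tested, 7 were called below 0 and none above, against 3.87% of all genes below 0, and the median tissue difference was -0.82. The count was 3 to 6 in the 12 fits without 1 array. It was 3 without control liver number 1 or 21 or 12 Gy liver number 6 or 26, and 4 without control liver number 11, control lung number 21 or 12 Gy lung number 16. All 22 liver changes were below 0 in value, and 9 of the 22 were called down in liver, against 3 in lung. Among all probes 1.90% were called in liver and 6.81% in lung, in either direction. Ifit1, an antiviral RNA-binding gene, lay at 10.65, 10.03 and 10.21 in control liver and 8.46, 9.01 and 8.53 after 12 Gy, a fall of 3.10-fold. Lung levels were 10.20, 9.88 and 10.19 in controls and 9.99, 9.90 and 9.87 after 12 Gy. The lung change of -0.17 was small beside the liver fall, and the tissue difference was -1.46 ± 0.29 (limma adjusted p = 0.019), with -1.45 and -1.28. Ifit2 of the same family gave -1.65, with -1.41 and -1.13, from changes of -1.25 and 0.40. The others called, named after their values were seen, were Ifit3, Oas2, Oasl1, Irf7 and Zbp1. With the scan day as a term 1 of the 22 was called and at 8 Gy none, with medians of -0.77 and -0.48. Bst2, the brightest member, had changes of -0.28 and 0.52 and was not called.

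**Figure D3:**
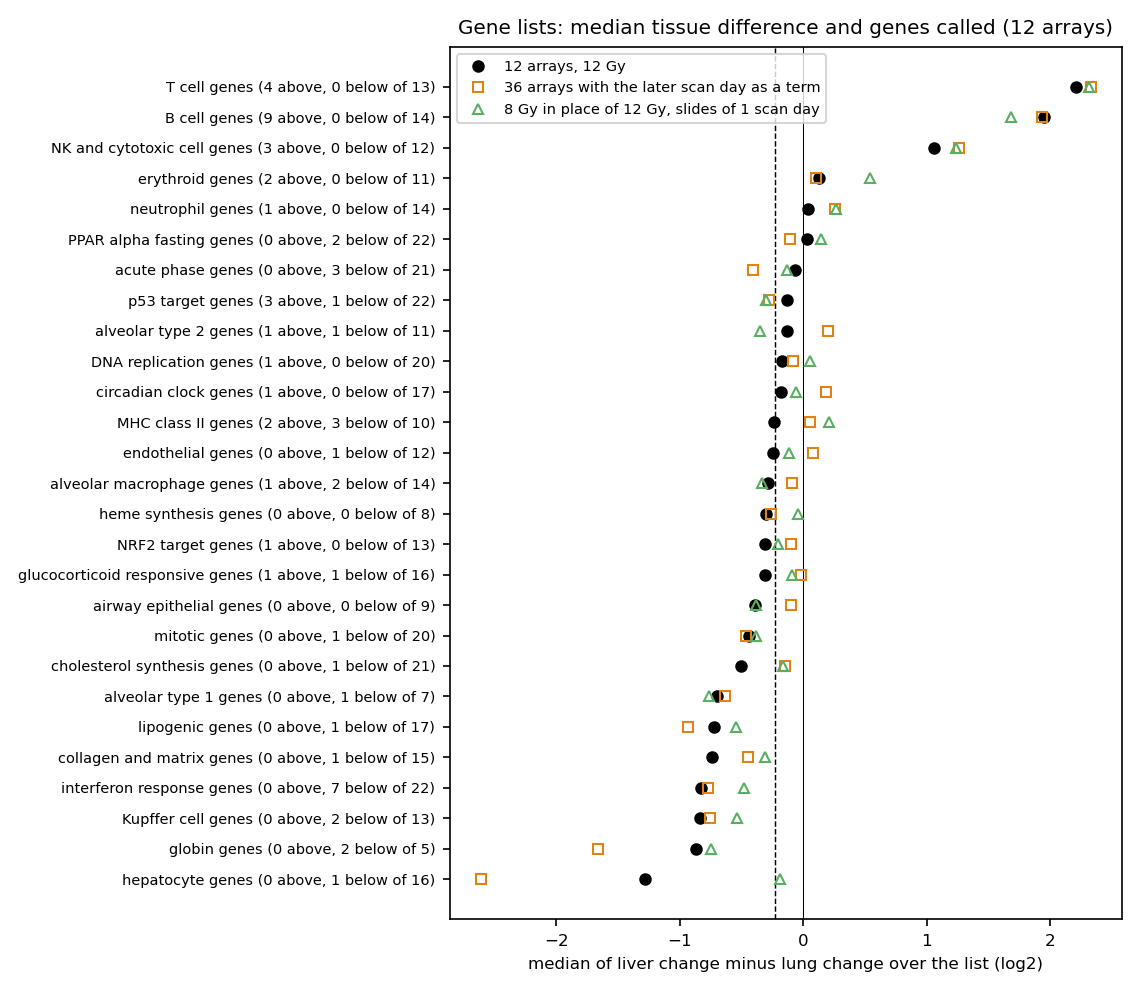
Median tissue difference (log2) of each gene list for the 12 arrays (filled circles), with the scan day as a term (squares) and at 8 Gy without the later slide (triangles), beside the median of all genes with a symbol (-0.22, dashed line). Labels give genes called above and below 0, and the T, B and NK cell lists lie highest in all 3 fits.

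The most negative tissue difference belonged to Serpina9, a serine protease inhibitor gene that is known from germinal-centre B cells. It lay at 9.78, 10.46 and 9.57 in control liver and 3.91, 5.23 and 2.94 after 12 Gy, where no array was well above background. In lung it lay at 8.70, 9.64 and 8.65 in controls and 10.01, 10.63 and 9.95 after 12 Gy. Liver fell at least 35.0-fold and the lung change of 1.20 was not called. Its tissue difference was -7.11 ± 0.70 (limma adjusted p = 0.0014), -6.88 with the scan day as a term and -5.02 at 8 Gy, and the second probe gave -5.32. Its direction was thus opposite to that of the B cell list.

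Ces2e, a carboxylesterase gene, was the reverse case of a gene that rose in lung. It lay at 13.94, 14.23 and 14.53 in control liver and 15.34, 14.98 and 15.16 after 12 Gy, and in lung at 7.57, 8.60 and 8.82 in controls and 12.91 and 12.55 on the 2 arrays kept at 12 Gy. The rise was 21.1-fold in lung, and the tissue difference was -3.47 ± 0.45 (limma adjusted p = 0.0048), with -3.38 and -3.23, both called. Hepatocyte RNA was low but present in lung, where the summed intensity of the hepatocyte list was 41467 to 56627 at 0 Gy and 48836 to 75252 at 12 Gy. The median lung change of that list was 0.99 on the log2 scale, with 12 of 16 genes above 0. Any part of hepatocyte RNA in the Ces2e result was not tested.

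A further liver enzyme was called below 0 with a rise in lung. Tat, the glucocorticoid-responsive tyrosine aminotransferase, rose 6.41-fold in lung with a liver change of 0.32, and gave -2.36 ± 0.40 (limma adjusted p = 0.011). It gave -2.63 with the scan day as a term and -1.71 at 8 Gy. Of the 16 hepatocyte genes 1 was called, below 0, against 3.87% of all genes. It was Hsd3b5, a steroid dehydrogenase gene of liver, which fell 13.2-fold there and was not well above background on any lung array (-2.91, with -2.87 and -4.28). The median of that list was -1.28, but -2.61 with the scan day as a term and -0.19 at 8 Gy.

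Of 17 lipogenic genes, Srebf1 alone was called, below 0, against 3.87% of all genes. The median of the list was -0.72, and none of the 17 was called with the scan day as a term or at 8 Gy. Srebf1, the transcription factor gene that drives fatty acid synthesis, lay at 15.32, 15.28 and 14.70 in control liver and 13.61, 13.61 and 13.36 after 12 Gy, a fall of 2.97-fold. Lung levels were 13.74, 13.42 and 13.36 in controls and 13.48, 14.00 and 13.56 after 12 Gy, which overlapped. The tissue difference was -1.75 ± 0.30 (limma adjusted p = 0.011), with -1.43 and -1.09. Scd1, the stearoyl-CoA desaturase, had changes of -1.15 and -0.43 and was not called. Pmvk, phosphomevalonate kinase, was the 1 call among 21 cholesterol synthesis genes (-1.89, with -1.78 and -1.33), from a lung rise of 2.74-fold. A second Pmvk probe gave -1.22 and was not called.

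Macrophage genes gave few calls, to be read against 3.87% of all genes below 0 and 1.93% above, and none in either list was called with the scan day as a term or at 8 Gy. Of 13 Kupffer cell genes, Cd5l (-1.69, with -3.72 and -2.13) and the complement gene C1qc (-1.16, with -1.30 and -0.54) were called below 0, and the median was -0.84. Of 14 alveolar macrophage genes, Chil3, a chitinase-like protein gene, and the integrin gene Itgax were called below 0 and Atp6v0d2, a proton pump subunit, above 0. Chil3 gave -2.56, with -2.14 and -2.54, Itgax -1.43, with -0.89 and -1.41, and Atp6v0d2 1.35, with 1.06 and 0.999. Chil3 lay at 15.46 to 16.26 on all lung arrays and fell in liver from 6.61 to 7.31 to levels not well above background, at least 6.02-fold. Napsa, the aspartic protease of alveolar type 2 cells, did likewise (-2.38, with -1.82 and -2.90, both called), at 14.89 to 15.24 in lung and with a liver fall of at least 4.88-fold, though a dimmer Napsa probe gave 0.24 and was not called. Both genes were far brighter in lung than in liver, where their control signal was low but well above background on all 3 arrays. The study lists Chil3 among the genes most reduced with dose in liver.

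Proliferation genes gave few called tissue differences, to be read against 1.93% of all genes above 0 and 3.87% below. Of 20 mitotic genes 10 were called down in liver and 9 in lung, against 1.90% and 6.81% of all probes called in either direction. Melk alone had a called tissue difference (-1.93, with -2.40 and -1.22). No 12 Gy liver array was well above background for Melk, so its liver fall is a lower bound. Of 20 DNA replication genes Tk1 alone was called (2.26 ± 0.40, limma adjusted p = 0.012, with 2.14 and 2.29). Tk1, thymidine kinase, lay at 12.27 to 12.63 in control liver and 12.71 to 12.86 after 12 Gy, and fell 3.86-fold in lung, from 8.12, 8.70 and 9.42 in controls to a mean of 6.80 ± 0.30 (SD, n = 3) after 12 Gy. Its change in lung was the one that passed the test.

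Other genes measured in both tissues had large tissue differences. Zdhhc22, a protein palmitoyltransferase gene, fell 10.9-fold in liver and 129-fold in lung (3.57, with 2.40 and 2.91), where only 1 of 3 arrays at 12 Gy was well above background in each tissue, so both folds rest on levels near background. Unc93a2 fell at least 39.4-fold in lung (4.14, with 3.28 and 2.89). Apol7c, of the apolipoprotein L family, fell 5.83-fold in lung with a liver change of 0.63 (3.17, with 2.67 and 2.82, both called). Ncaph, a condensin subunit, rose 3.62-fold in lung (-2.98, with -2.10 and -1.83). Gask1a fell 3.29-fold in liver, to levels well above background on 1 of 3 arrays (-2.65, with -2.05 and -2.25), and a dimmer probe gave 0.0070 and was not called.

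Some genes were measured in 1 tissue only, so their tissue difference is the change of that tissue against a signal at background. In liver alone, Gm45941 rose 17.0-fold (3.47, with 4.06 and 3.56, both called), from 6.38, 6.38 and 6.67 to 10.82, 10.52 and 10.37. In lung alone, the calls included falls of Gm1070, Gm11346 and A630023P12Rik and rises of Ccdc184 and of the striated muscle genes Txlnb, Ttn and Asb11. A second Ccdc184 probe was also called (-2.47). Further Ttn probes (-1.13 and -0.32) and a second Asb11 probe (-0.77) were not called. Of the 2055 called probes, 1580 were well above background in all arrays of a group in both tissues, 43 in liver with no lung array, and 206 in lung with no liver array.

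**Figure D4:**
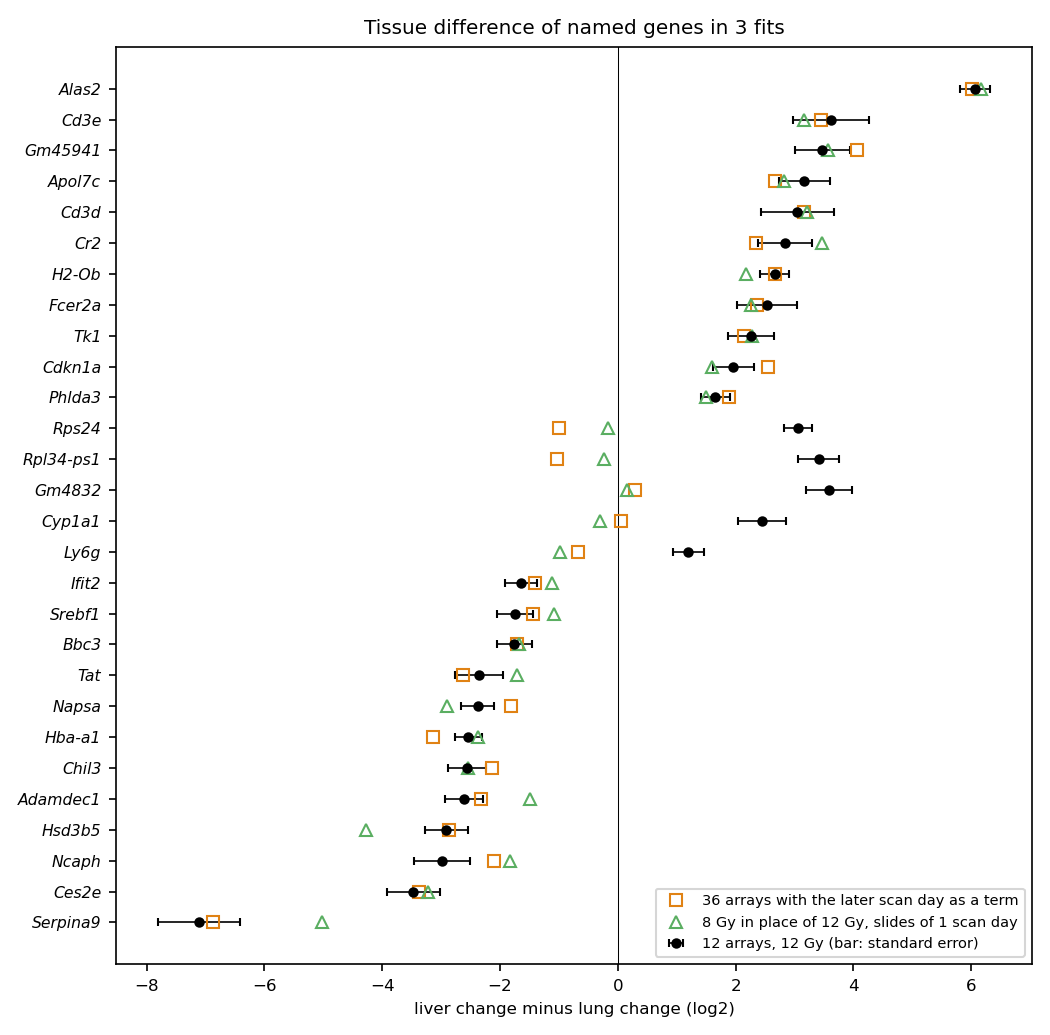
Tissue difference (log2) of named genes in the 12 arrays (circles, bar: standard error), with the later scan day as a term (squares) and at 8 Gy without the later slide (triangles). Values for Alas2, Bbc3 and Ces2e lie close together, whereas those for Rps24, Rpl34-ps1, Gm4832, Cyp1a1 and Ly6g do not.

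The tissue difference of a set of called genes shrank or changed sign with the scan day as a term and at 8 Gy. Rps24, which encodes a ribosomal protein, lay at 13.66, 13.72 and 13.61 in control lung and 10.59, 10.87 and 10.80 after 12 Gy, and at 12.81 to 13.41 in all liver arrays. Its tissue difference of 3.06 ± 0.24 (limma adjusted p = 4.5e-04) became -1.002 with the scan day as a term and -0.17 at 8 Gy. Other Rps24 probes gave 1.55 and -0.73. In lung at 8 Gy, array 25 on the later slide read 10.17 and the other arrays 14.08 and 14.38. At 8 Gy the low Rps24 level was thus on the later slide's array, but that is 1 sample, so slide and sample cannot be told apart and the cause was not tested. The tissue differences of Rpl34-ps1 (3.41, then -1.03 and -0.24), Gm4832 (3.58, then 0.30 and 0.16) and the neutrophil gene Ly6g (1.20, then -0.67 and -0.98) moved likewise. That of the dioxin-induced cytochrome Cyp1a1 also moved (2.45, then 0.06 and -0.31). Its lung 8 Gy arrays spread widely, however (mean 6.92, SD 2.52, n = 3), and its shift was not traced to the slide. Among probes above 0 that fell in lung with no call in liver, 410 of 623 had the same sign with the scan day as a term, against 172 of 173 among those below 0 that fell in liver with no call in lung and 365 of 368 among those below 0 that rose in lung with no call in liver.

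**Figure D5:**
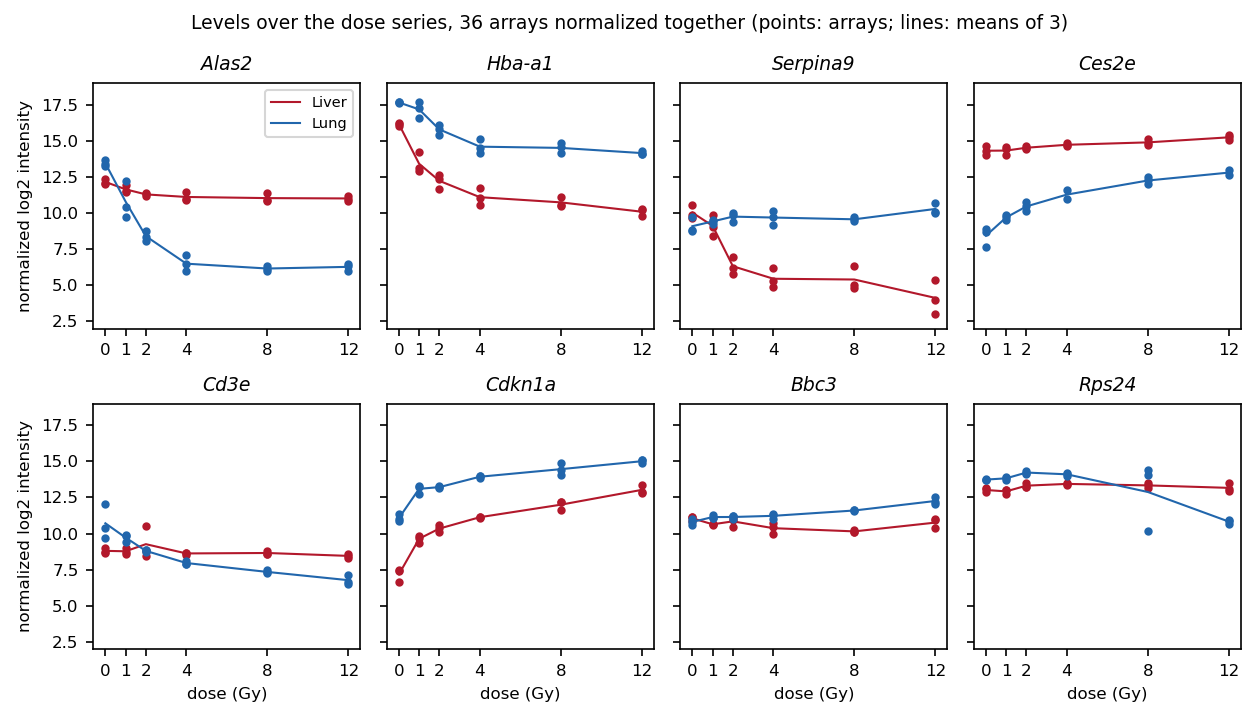
Normalized log2 intensity of 8 genes in liver (red) and lung (blue) against dose (Gy), 36 arrays normalized together, with points for arrays and lines for means of 3. Alas2 in lung went from 13.44 at 0 Gy to 6.49 at 4 Gy, and 1 lung array at 8 Gy, on the later slide, is low for Rps24.

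The tissue difference of several genes was also present in the levels at lower doses, which were not tested here. Mean Alas2 in lung was 10.79 at 1 Gy, 8.39 at 2 Gy, 6.49 at 4 Gy, 6.15 at 8 Gy and 6.27 at 12 Gy, while in liver it was 11.64, 11.29, 11.11, 11.03 and 11.01. Mean Serpina9 in liver was 9.11 at 1 Gy, 6.31 at 2 Gy and 5.45 at 4 Gy, against 9.41, 9.75 and 9.68 in lung. Lung Alas2 and liver Serpina9 thus had most of their fall by 4 Gy.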

How the data were processed

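Whole-tissue RNA was measured on 1-colour Agilent arrays. Per the labels and file headers, the authors scanned the arrays with Agilent Feature Extraction 11.5.1.1, and deposited spot intensity and local background, with processed intensity, and series values of intensity scaled so that each array's 75th percentile is near 1, by a procedure not given in the sources used here. The last 2 were used as alternatives only. From the deposited intensity, 12 arrays were background corrected by normexp (offset 0, median spot and median local background), quantile normalized and log2 transformed with limma 3.58.1 (R 4.3.3 and statmod 1.5.0). Spots of 1 probe were averaged, outlier spots and control spots were excluded, and a probe was kept if any array had it well above background. A probe was well above background where at least 0.5 of its spots were. The 4 group means, the tissue contrast and each tissue's change were fitted with no covariate, with empirical Bayes and Benjamini-Hochberg adjustment over 41073 probes. Calls needed an absolute log2 value above 1 and an adjusted p below 0.05. The fit was tested on simulated data. Where a group had no array well above background, folds were set against the lowest signal well above background on each array and are given as "at least". Gene lists use the brightest probe of a gene, and named genes the called probe with the largest difference. Named genes were the 8 largest called differences in each direction among probes measured in both tissues, the 4 largest among those measured in 1 tissue only, up to 2 called members in each direction and the brightest member of each list, and 6 genes the study names in liver, with the arrays of both doses separated in at least 1 tissue for the first 2 kinds. Lca5l, Nr4a2, Plk2, the beta-globin genes, the second probes and the further interferon genes fall outside this rule and were named after their values were seen. Some genes that the rule names are not reported here. Members, lists and rule were chosen with earlier results of these data known. Alternatives were the background correction, normalization, probe filter, array blocks and each array left out, and, chosen after seeing the data, the scan day, slide over 36 arrays and 8 Gy. The number of arrays limits the precision. Promoter sequences and names came from RefSeq tables, with GRCm38.p6 coordinates.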

Additional observations from a re-analysis of the deposited data

Results flagged for a closer look

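At 12 Gy the liver change differed from the lung change by a test of the difference itself (limma, adjusted over all probes) at 2055 probes, and each named gene below passed that test. Values are liver change minus lung change in log2, with signs as computed. Genes listed as measured in both tissues include Slc4a1 and Melk, which were well above background on 2 control liver arrays and on no liver array at 12 Gy.

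Above 0, among genes measured in both tissues, were Alas2 (6.07), Unc93a2 (4.14), Cd3e (3.62), Gm4832 (3.58), Zdhhc22 (3.57), Rpl34-ps1 (3.41), Apol7c (3.17), Rps24 (3.06), Cd3d (3.05), Cr2 (2.84), H2-Ob (2.66), Fcer2a (2.53), Tk1 (2.26), Prf1 (1.97), Cdkn1a (1.96), Gadd45b (1.93), Ciart (1.93), Slc4a1 (1.79), Phlda3 (1.66), H2-Oa (1.55), Atp6v0d2 (1.35), Ly6g (1.20), Sftpa1 (1.16) and Ces1g (1.04). With no lung array well above background on the probe named they were Gm45941 (3.47), Gm10804 (1.89) and Cyp2c50 (1.20). With no liver array well above background they were Gm1070 (2.87), Gm11346 (2.80), A630023P12Rik (2.57), Cyp1a1 (2.45) and Ncr1 (1.64).

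Below 0, among genes measured in both tissues, were Serpina9 (-7.11), Ces2e (-3.47), Ncaph (-2.98), Gask1a (-2.65), Adamdec1 (-2.61), Chil3 (-2.56), Hba-a1 (-2.54), Hba-a2 (-2.41), Napsa (-2.38), Tat (-2.36), Saa3 (-2.27), Melk (-1.93), Pmvk (-1.89), H2-Ab1 (-1.80), Bbc3 (-1.76), Srebf1 (-1.75), Cd5l (-1.69), Ifit2 (-1.65), H2-Eb1 (-1.50), Ifit1 (-1.46), Itgax (-1.43), Cd74 (-1.42), C3 (-1.28), Pdpn (-1.24), Col4a1 (-1.19), C1qc (-1.16), Cldn5 (-1.14) and Hadha (-1.06). With no lung array well above background they were Hsd3b5 (-2.91), Chrna4 (-2.64), Serpina5 (-2.50) and Hsd3b4 (-2.27). With no liver array well above background they were Ccdc184 (-2.84), Txlnb (-2.56), Ttn (-2.55) and Asb11 (-2.53).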

How the results depend on the processing

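All 2055 calls of the tissue difference rest on 3 arrays a group, and the lung 12 Gy arrays cannot be told apart from their slide and scan day. The count was 3603 with the series values (2339 above and 1264 below 0), 1086 with no filter on dim probes, 577 with the replicate number as a fixed block, 3192 with slide as a random block, 513 with slide as a random block over 36 arrays (168 and 345), 196 with the scan day as a term (84 and 112), and 59 and 90 at 8 Gy without and with the later slide's array. It ranged from 308 to 2596 when arrays were left out, with 720 to 2596 for 1 array, namely 968, 720 and 1088 without liver 0 Gy numbers 1, 11 and 21, 1026 and 1253 without liver 12 Gy numbers 6 and 26, 1358 and 1192 without lung 0 Gy numbers 11 and 21 and 1281 without lung 12 Gy number 26, and 308 to 1270 for both arrays of 1 number. Dropping both also leaves fewer samples. Calls in all 12 fits without 1 array numbered 623. Within liver the count of 782 became 431 with offset 50 and 1190 with the series values, and ranged from 374 to 795 when arrays were left out, with 438 without liver 0 Gy number 11. Within lung the count of 2796 became 1631 with offset 50, 4278 with the processed signal, 4228 with the series values, 733 with the scan day as a term, and 621 and 776 at 8 Gy, and ranged from 2183 to 3447 when arrays were left out. The causes were not tested.

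Signs turned for single genes. With the scan day as a term they did for Rpl34-ps1 (-1.03), Rps24 (-1.002), Ly6g (-0.67) and, though not called, Blnk (0.10). At 8 Gy without the later slide they did for Rpl34-ps1 (-0.24), Rps24 (-0.17), Cyp1a1 (-0.31), Ly6g (-0.98), Sftpa1 (-0.35), Ces1g (-0.82), Hadha (0.21) and the uncalled Hemgn (0.33), and with all 8 Gy arrays for Ly6g (-0.36), Sftpa1 (-0.093), Ces1g (-0.68) and Hemgn (0.23). The uncalled Gzma was -0.34 with the processed signal, -0.088 with scaling to the 75th percentile and -0.29 with the series values, Eda2r 0.40 and 0.47 with the processed signal and the series values, and Hemgn 1.29 with transcript averages. The uncalled Zap70 was 0.00 (-0.0028) with the processed signal and ranged from -0.23 to 0.46 when arrays were left out, below 0 without array 21 of either or both tissues at 0 Gy. The cause was not tested.

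Deviations from group means were little correlated between liver and lung arrays of equal number (r of -0.0042 to 0.10 over the 6 pairs). Between unequal numbers of the same dose r was -0.091 to 0.071. The ranges overlapped, so these values do not settle whether equal numbers were the same animal. The replicate block gave 577 calls as a fixed term and 2211 as a random one. Slide as a fixed term could not be fitted to the 36 arrays.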

Other observations

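Further gene lists had few called members, to be read against 1.93% of all genes above 0 and 3.87% below. Of 21 acute phase genes, which the liver secretes in inflammation, 3 were called below 0, led by Saa3, which rose 10.3-fold in lung in the test of lung alone (tissue difference -2.27, with -3.50 with the scan day as a term and -2.17 at 8 Gy), and the complement gene C3, which rose 2.46-fold in lung (-1.28, with -1.01 and -0.57). A second C3 probe gave -0.72 and was not called. Hp, haptoglobin, had changes of 0.22 and 0.33. Of 16 glucocorticoid responsive genes, Gadd45b, a stress-response gene, rose 5.03-fold in liver with a lung change of 0.40 (1.93, with 2.25 and 1.99), and Tat was called below 0. The Gadd45b call held in 3 of 12 fits without 1 array.

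Of the vessel, matrix and alveolar type 1 lists 1 gene each was called below 0, against 3.87% of all genes, and none with the scan day as a term or at 8 Gy. They were Cldn5, the endothelial tight junction gene, 1 of 12 (-1.14, with -0.53 and -0.83), the basement membrane collagen Col4a1, 1 of 15 (-1.19, with -0.45 and -0.37), and Pdpn, 1 of 7 alveolar type 1 genes (-1.24, with -0.85 and -0.83). The collagen and matrix list had a median of -0.74, with -0.45 and -0.31. No airway epithelial gene of 9 was called. Of 11 alveolar type 2 genes, Napsa was called below 0 and Sftpa1 above 0 (1.16, with 0.45 and -0.35).

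Single calls came from the circadian clock list, with Ciart (1.93, with 0.47 and 0.74) of 17 genes, from the NRF2 target list, with Ces1g (1.04, with 0.60 and -0.82) of 13, and from the neutrophil list, with Ly6g of 14. All were above 0, where 1.93% of all genes were called. Of 22 PPAR alpha fasting genes 2 were called below 0, against 3.87% of all genes, and 1 with the scan day as a term. Among them Hadha, of mitochondrial fatty acid oxidation (-1.06), was -0.06 with the scan day as a term and 0.21 at 8 Gy. Cyp2c50, a liver cytochrome, was called above 0 (1.20) from a liver change of 0.87, below the size needed for a call in liver. A brighter Cyp2c50 probe, well above background on 2 lung arrays of each dose, went the other way. Its changes were 0.16 and 0.83, and its tissue difference of -0.66 was not called.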
